A study of Mus musculus with 6 samples.

Results

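Fibroblast-like cells were taken from the soleus of mice after hindlimb unloading (HU), and those of old mice were compared with those of young mice. The study sorted CD45+ DAPI− cells, meaning living leukocytes, from soleus muscle of male C57BL/6 mice and sequenced single cells on the 10x Genomics Chromium platform. Solei of several mice were pooled into 1 library for each age in ambulatory control, HU and 4-day reload, so there were 6 libraries and 1 for each group. Old mice were 20 to 22 months of age and young mice 4 to 5 months, all were wild type, and both HU groups were unloaded with no return to normal loading. With 1 library of pooled mice per group, no difference between ages could be tested, and age cannot be told apart from whatever else differed between the 2 HU libraries.

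Members were selected on measured UMI counts. A cell was taken if at least 4 of 7 fibroblast genes (Col1a1, Col1a2, Col3a1, Dcn, Pdgfra, Lum and Dpt) had a unique molecular identifier (UMI, the count of 1 captured RNA molecule). A member also had at most 1 UMI over the macrophage genes C1qa, C1qb and C1qc, and 0 UMIs of Cdh5, Gpihbp1, Cd3e and Cd79a, which mark endothelial cells, T cells and B cells. Only barcodes with at least 200 genes and at most 10% mitochondrial UMIs were kept. This gave 24 members among 1890 kept cells of the old HU library and 49 among 1518 of the young HU library, or 73 of 12520 kept cells in all 6 libraries. The old members held 98626 UMIs, with 1719 to 12116 UMIs per cell and a median of 3140.5. The young members held 185190 UMIs, with 672 to 8082 per cell and a median of 3816. Because the rule reads the 7 fibroblast genes, their presence in the members is a description and not a finding.

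Fibroblasts of skeletal muscle, also called fibro-adipogenic progenitors, lie between the fibres and around vessels and express Pdgfra, the receptor for platelet-derived growth factor. They build the extracellular matrix from fibrillar collagens, basement membrane proteins and small proteoglycans, and they send chemokines, complement proteins and growth factors to leukocytes and muscle stem cells. They are not leukocytes and do not carry CD45. Adventitial fibroblasts around vessels are known for Pi16 and Dpp4, parenchymal ones between fibres for Col15a1 and Smoc2, and tenocytes of the tendon for Tnmd and Scx.

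The members carried fibroblast markers and lacked CD45. Dcn, which encodes the collagen-binding proteoglycan decorin, was found in all 73 members, at 12 to 245 UMIs per old cell (median 89) and 19 to 234 per young cell (median 115). Of genes that the rule did not read, Mfap5, a microfibril protein, had a UMI in 82.2% of members, against 0.436% of endothelial-like, 0.314% of macrophage-like and 0% of T cell-like cells of the same 2 libraries. Ptprc, which encodes CD45, had a UMI in 0 of 73 members, which allows a share of up to 4.11%. It had a UMI in 47.7% of old and 33.5% of young macrophage-like cells and in 50.3% of old and 48.8% of young T cell-like cells. The sort was on CD45, and how these cells entered the sorted pool was not tested.

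**Figure D1:**
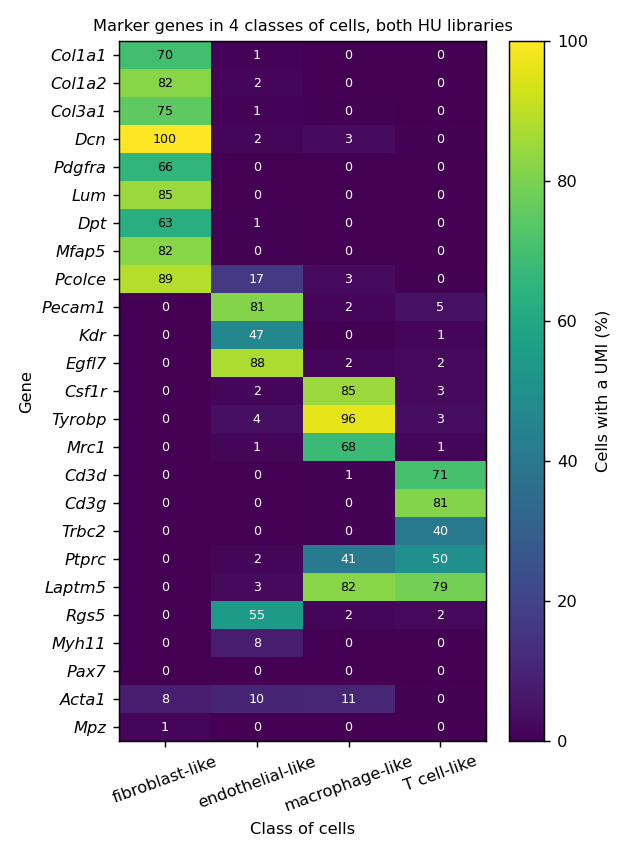
Percent of cells with a UMI of each gene (rows) in fibroblast-like, endothelial-like, macrophage-like and T cell-like cells (columns) of both HU libraries together. The 7 uppermost genes are those of the rule, and Ptprc is at 0% in fibroblast-like cells, against 40.9% in macrophage-like and 50% in T cell-like cells.

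Most markers of other cell types were near 0 in the members. The main exceptions were the endothelial list, mostly through Ly6c1, with UMIs in 18 of 24 old and 31 of 49 young members, and the B cell list, mostly through Ebf1, with UMIs in 21 old and 33 young members. A few other markers sat in single young cells. The 10 leukocyte markers summed to 9 UMIs in old and 5 UMIs in young members, with 6 of the 10 at 0 in both, Ptprc, Laptm5 and Cd53 among them. The 12 macrophage markers summed to 7 and 11 UMIs, with 6 of the 12 at 0, Csf1r, Adgre1 and Mrc1 among them. The 12 endothelial markers summed to 58 UMIs in old and 193 UMIs in young members, of which Ly6c1 gave 48 and 160. Ly6c1 is also expressed by adventitial fibroblasts, and Pecam1, Kdr and Cldn5 were at 0. Mural cell markers summed to 19 and 26 UMIs with Rgs5 and Myh11 at 0, myofibre markers to 3 and 20 UMIs, and satellite cell markers to 4 and 43 UMIs with Pax7 at 0 and 37 of the 43 in 1 young cell. The 8 T cell markers summed to 6 and 13 UMIs, with Cd3d and Cd3g at 0. The 7 Schwann cell markers had 0 UMIs in old and 35 UMIs in young members, 34 of them in 1 young cell. B cell genes Cd79b and Ms4a1 were at 0, and nearly all UMIs of that list came from Ebf1, a factor of B cells and fibroblasts alike. Scrublet, a doublet caller, put 0 members among the 36 highest scores of either HU library.

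Fibroblast-like cells made up a smaller share of the old HU library than of the young one. The share was 1.27% of kept cells in old HU (exact binomial 95% interval 0.815 to 1.88%), against 3.23% in young HU (2.40 to 4.25%), and these intervals do not overlap. These intervals, and those of the ratios given later, hold only the error of counting, and the spread between mice is not in them. The intervals of the ratios also leave out the spread of UMIs between cells. The order did not turn at a limit of 5% mitochondrial UMIs, where the shares were 1.35% and 4.01%, nor with at least 3 genes of the rule (2.01% and 4.48%) or at least 5 (0.741% and 2.50%). Endothelial-like cells, which are likewise not leukocytes, were 9.26% of old HU and 18.7% of young HU cells. The filters removed 11.0% of barcodes in old HU and 28.6% in young HU. The part of the sort and of these filters in the difference was not tested.

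The same rule found few members in the other 4 libraries. There were 5 members in old control (0.190% of kept cells) and 3 in young control (0.187%), then 24 in old HU and 49 in young HU, then 5 in old reload (0.206%) and 12 in young reload (0.490%). Both HU shares lay above the control and reload shares, and the intervals overlapped only between old HU (from 0.815%) and young reload (up to 0.854%). The control libraries were sequenced in another run than the HU and reload libraries, so HU and run cannot be told apart against control. Control, HU and reload samples also carry different number prefixes in their titles, and whatever these stand for cannot be told apart from treatment, reload included.

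**Figure D2:**
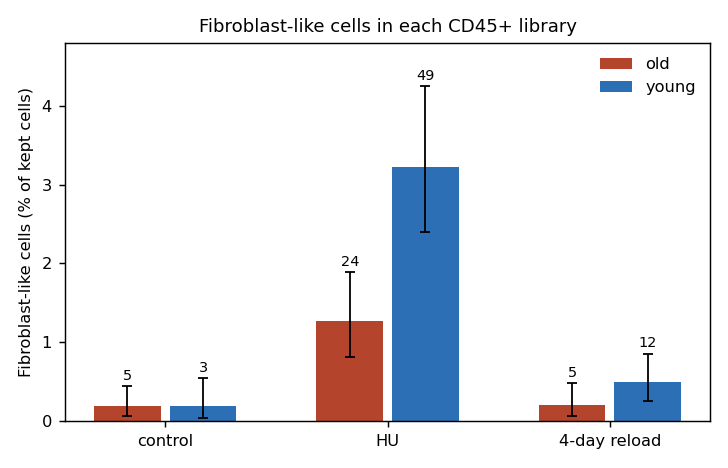
Share of kept cells that were fibroblast-like (percent, y axis) in each library, with old (red) left of young (blue) for control, HU and 4-day reload. Bars are the share of 1 library, lines are exact binomial 95% intervals, and the number above each bar is the count of members, with 24 in old HU and 49 in young HU.

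Dcn is given for members near the limit of the rule as a description, since the rule reads this gene. Depth differed too, with a median of 2456 UMIs in young members with exactly 4 genes and 3993.5 in those with at least 5. The 10 old and 11 young members with exactly 4 genes had a median of 57.5 and 43 Dcn UMIs, and the 14 old and 19 young cells with exactly 3 genes, just outside, had 39 and 52. The 14 old and 38 young members with at least 5 of the 7 genes had a median of 108.5 and 126.5. In the cells with exactly 3 genes, 0 had a UMI of Ptprc.

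Both kinds of muscle fibroblast were among the members of both ages. At least 2 of the 4 parenchymal markers (Col15a1, Penk, Smoc2, Hsd11b1) had a UMI in 14 of 24 old members, or 58.3% (36.6 to 77.9%), and in 31 of 49 young members, or 63.3% (48.3 to 76.6%). At least 2 of the 4 adventitial markers (Pi16, Dpp4, Cd55, Sema3c) had one in 6 old members, or 25% (9.77 to 46.7%), and in 13 young members, or 26.5% (14.9 to 41.1%). Both sets were met in 2 old and 6 young cells, and none of the 3 sets in 5 old and 8 young cells. The intervals overlap widely, so shares of kinds could not be told apart at this number of cells.

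Tenocyte genes came from a handful of cells. A single old cell of 12116 UMIs held all 128 Fmod, all 85 Comp and all 38 Tnmd UMIs of the old members. Fmod encodes fibromodulin, Comp a matrix protein of cartilage and tendon, and Tnmd tenomodulin. In young members Fmod was found in 3 cells, with 95, 71 and 18 UMIs, and Thbs4, a thrombospondin of tendon, had 244 UMIs in 1 cell and 90 in another. Of the 4 measured tenocyte genes, Comp was higher at 1.15 and Thbs4 lower at −1.19 on the log2 scale. Both turned without the cells that had at least 2 tenocyte markers, which were 1 old and 4 young cells, to −3.67 and 1.001.

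Expression was then compared between old and young members. UMIs of a gene were summed over the members of a library and scaled to a common total, as CPM, and the log2 ratio is that of old HU over young HU. Brackets hold its exact 95% Poisson interval, which leaves out the spread between cells. Where 1 cell holds many of a gene's UMIs, the ratio without that cell can thus lie outside the brackets. A gene was measured if it had at least 50 UMIs over both sets, and it is called higher or lower here if its ratio was at least 1.5-fold, a cut on size with no test behind it. Of 767 genes measured, 83 were called higher in old (10.8%) and 98 lower (12.8%), or 23.6% either way, and the median log2 ratio was 0.002. With TMM scaling 65 were higher and 139 lower, and on mean UMIs per cell with no scaling for depth, which shifted the median to 0.12, 125 were higher and 70 lower. Leaving mitochondrial, ribosomal, haemoglobin and the rule's genes out of the total gave 105 higher and 83 lower. The balance between higher and lower calls thus moved with the scaling. Thinning cut every cell of at least 1000 UMIs to 1000. Settings that changed or thinned the cells filtered genes again at 50 UMIs, so their list medians can cover fewer or other genes. Ratios of single genes in these settings had no UMI minimum. Only 210 genes still had 50 UMIs after thinning, so many thinned ratios of single genes rest on fewer. The genes named from each side are the 15 with the highest and the 15 with the lowest ratio among those with a UMI in at least 10 cells of the higher library. Ribosomal protein genes held 21.8% of old and 17.3% of young UMIs, and 2 old cells of over 10000 UMIs held 22.5% of the old total while no young cell was that deep.

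Collagen genes were lower in old members, but the rule itself reads Col1a1, Col1a2 and Col3a1. Without these genes 4 measured collagens were left, with a median of −0.61, 2 called lower and 0 higher. Of the 15 collagens on the list 7 were measured, and 5 were called lower and 0 higher, against 12.8% and 10.8% of all measured genes. Their median log2 ratio was −0.92, against 0.002 over all genes. Col1a1 (chr11:94936224-94953042, plus strand, mm10), which encodes the main chain of type I collagen, had 0 to 35 UMIs per cell in old members with a median of 1 and 0 to 86 in young members with a median of 2. It summed to 730 CPM in old and 1868 CPM in young, a log2 ratio of −1.36 [−1.74, −0.99]. Col3a1 (chr1:45311538-45349706, plus strand), the chain of type III collagen, summed to 1257 CPM in old and 2527 CPM in young, −1.01 [−1.30, −0.72]. Of the 124 old UMIs of Col3a1, 97 came from 1 cell, and without the top cell of each library its ratio was −2.72. Col1a2 had −0.96 [−1.34, −0.59], Col5a2 −0.92 [−1.76, −0.15] and Col6a1 −0.66 [−1.13, −0.20]. With at least 5 genes of the rule Col5a2 had −0.36 and Col6a1 −0.55, and Col5a2 had −0.35 after thinning and Col6a1 −0.47 at a limit of 5% mitochondrial UMIs, all under 1.5-fold. Col6a2 at −0.56 and Col6a3 at 0.30 were not called.

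As a description only, since the rule reads a UMI of Col3a1 and more young than old members passed it with 5 or more genes, the share of members with that UMI is also given. After every cell of at least 1000 UMIs was thinned to 1000, Col3a1 had a UMI in 20.8% of 24 old members (7.13 to 42.2%) and in 61.7% of 47 young members (46.4 to 75.5%), with 2 young cells left out as too shallow. Without thinning the shares were 54.2% and 85.7%. T cell-like cells, which should lack the gene and had a median of 2690 UMIs in old HU and 2493 in young HU, had it in 0 of 187 and 0 of 43 cells, which allows up to 1.60% and 6.98%. Col1a1, Col1a2 and Col3a1 are genes of the rule, and the other 4 measured collagens had a median of −0.61 with 2 called lower and 0 higher. With at least 5 genes of the rule the list's median was −0.54, which is no longer 1.5-fold. It was −0.61 at a minimum of 20 UMIs and −0.39, also under 1.5-fold, at a minimum of 1 UMI in each library.

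Other matrix lists had fewer calls, against 12.8% of all measured genes called lower and 10.8% higher. Of 8 measured basement membrane genes 4 were called lower and 0 higher, with a median of −0.59, which was −0.23 with at least 5 genes of the rule. Sparc, a collagen-binding protein secreted by matrix-building cells, had 1379 CPM in old and 2479 CPM in young members, −0.85 [−1.13, −0.57], and Col4a1 had −0.91, Col15a1 −0.92 and Nid1 −0.60. Nid1 had −0.23 and Col4a1 −0.58 with at least 5 genes of the rule, both under 1.5-fold. Of the 8 measured small leucine-rich proteoglycans 1 was called lower, a share near that of all genes. It was Lum, a gene of the rule, at −0.65 [−0.98, −0.33], which was −0.47 with at least 5 genes of the rule and −0.35 without the 2 old cells of over 10000 UMIs. Dcn, also a gene of the rule, was at 21556 CPM in old and 30093 CPM in young members, −0.48 [−0.55, −0.41], under the 1.5-fold rule though its interval lies wholly below 0. Of 9 measured elastic fibre and microfibril genes 2 were called lower and 1 higher. Fbn1, the main protein of microfibrils, was called higher at 0.88 [0.23, 1.52] (0.45 with at least 3 genes of the rule), while Ltbp4, which binds latent TGF-beta, was called lower at −0.77 (0.095 after thinning). Of 8 measured genes for collagen folding and crosslinking, Serpinh1, the collagen chaperone, was the 1 called, at −0.84 [−1.48, −0.24], and had −0.40 after thinning. Of genes on no list, Rcn3, a calcium-binding protein of the endoplasmic reticulum, had −1.61, Islr, an immunoglobulin-domain protein of fibroblasts, had −1.26, and Itm2a, a membrane protein, had −1.21.

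Some enzymes that cut matrix were lower, and their inhibitors were mixed. Of 7 measured matrix proteases 3 were called lower and 0 higher, against 12.8% and 10.8% of all measured genes. Ctsk, which encodes the collagen-cutting cathepsin K, had 15 UMIs in old and 96 in young members, −1.77 [−2.66, −0.98], Mmp2 had −0.87 [−1.23, −0.52] and Mmp14 had −0.72 [−1.53, 0.02]. After thinning Ctsk had −0.39, and with at least 5 genes of the rule Mmp14 had −0.48, both under 1.5-fold. Among inhibitors Timp2 was lower at −0.71 and Timp3 higher at 0.95 (0.49 with at least 3 genes of the rule). Of 8 measured genes of the TGF-beta pathway, Postn (periostin), Cyr61 and Tgfbi were called lower, at −1.34, −0.93 and −0.60, and Tgfbi had −0.35 with every cell weighted equally. Ctgf, a target of the same pathway, had −0.45 [−0.82, −0.10]. Tagln was called higher at 0.97 on 26 UMIs that all came from 1 old cell, and most of its young UMIs also came from 1 cell. Its ratio was −1.78 without the 2 old cells of over 10000 UMIs, a bound with 0 old UMIs set to 3 counts. Postn was found in 3 old and 14 young cells, with 18 of its 24 old UMIs in 1 cell.

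Most measured parenchymal markers and complement genes were lower. Of 6 measured parenchymal markers 4 were called lower and 1 higher, against 12.8% and 10.8% of all measured genes, with a median of −0.76. After thinning the median was 0.01, which is the ratio of Cxcl14, a gene not called, while Smoc2 had −0.72. Smoc2, a matricellular protein of these cells, had 649 CPM in old and 1226 CPM in young members, −0.92 [−1.34, −0.51], and Lpl (lipoprotein lipase) had −0.998 [−1.61, −0.43]. Of 6 measured complement genes 4 were called lower and 0 higher, against 12.8% and 10.8% of all measured genes, with a median of −0.75. Among those called lower were C7 at −0.93, C1s1 at −0.79 and C3 at −0.72. The median of −0.24 after thinning is the ratio of Serping1, a gene not called. C7 had −0.27 after thinning, C1s1 −0.33 with at least 5 genes of the rule and C3 −0.35 without the 2 old cells of over 10000 UMIs. Lbp, which binds bacterial lipopolysaccharide, had −1.32 [−2.04, −0.66]. Of 5 measured adventitial markers 2 were called lower and 1, Has1, below, higher. Pi16, a peptidase inhibitor, was lower at 355 CPM in old against 907 CPM in young, −1.35 [−1.92, −0.82]. Ly6c1 was lower at −0.83 (−0.51 with every cell weighted equally). After thinning Pi16 had −0.33, under 1.5-fold. Of 5 measured adipogenic and lipid genes Cebpb, Lpl, Apod and Cebpd were called lower and Apoe, an apolipoprotein, higher at 1.06 [0.58, 1.55], which was 0.58 with at least 3 genes of the rule. Apod had −0.23 after thinning and Cebpd −0.39 with at least 3 genes of the rule.

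Tnfaip6 had the highest ratio of the genes named from the higher side. Tnfaip6 (chr2:52038009-52056686, plus strand), a secreted hyaluronan-binding protein induced by TNF, had 0 to 42 UMIs per old cell with a median of 1 and 0 to 5 per young cell with a median of 0. It summed to 77 UMIs (781 CPM) in old and 25 UMIs (135 CPM) in young members, a log2 ratio of 2.53 [1.86, 3.24]. The 42 UMIs sat in 1 old cell of 10062 UMIs, and the ratio was 1.72 without the top cell of each library and 0.97 at a limit of 5% mitochondrial UMIs, which removes that cell. Has1, which makes hyaluronan, had 98 UMIs in 12 old cells and 45 UMIs in 6 young cells, 2.03 [1.51, 2.57], and 49 of the 98 came from the same old cell. Uap1, which makes a sugar that hyaluronan is built from, had 1.36 [0.84, 1.89], but 0.53 at a limit of 5% mitochondrial UMIs.

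Nfkbia (chr12:55489410-55492647, minus strand), which encodes the NF-κB inhibitor IκBα and is itself induced by NF-κB, had 0 to 22 UMIs per old cell with a median of 3.5 and 0 to 14 per young cell with a median of 1. It summed to 1409 CPM in old and 518 CPM in young members, 1.44 [1.06, 1.83], and the ratio was 1.42 without the top cell of each library. Icam1, the adhesion molecule that leukocytes bind, had 30 UMIs in old and 22 in young members, 1.36 [0.51, 2.22], and 0.34 with at least 5 genes of the rule, under 1.5-fold.

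Of the 24 chemokines and cytokines on the list 6 were measured, with a median of 0.92. Of these 4 were called higher and 0 lower, against 10.8% and 12.8% of all measured genes. That median was 0.51 at the limit of 5% mitochondrial UMIs and 0.07 after thinning, both under 1.5-fold. Cxcl1 (chr5:90891241-90893115, plus strand), which draws neutrophils, had 0 to 71 UMIs per old cell with a median of 2.5 and 0 to 66 per young cell with a median of 1. It summed to 2028 CPM in old and 929 CPM in young members, 1.13 [0.83, 1.43]. After thinning it had a UMI in 58.3% of old members (36.6 to 77.9%) and 27.7% of young members (15.6 to 42.6%), against 66.7% and 51.0% without thinning, and in 1.07% of old and 2.33% of young T cell-like cells. Of the 200 old UMIs 71 came from the cell of 10062 UMIs, which the limit of 5% mitochondrial UMIs removes, and the ratio was then 0.45, under 1.5-fold. Ccl11 (eotaxin) had 99 UMIs in 18 old cells and 114 UMIs in 31 young cells, 0.71 [0.30, 1.11], and 0.07 after thinning. Ccl7, a monocyte attractant, had 73 UMIs in old and 10 in young members, but 63 of the 73 came from that same cell, and its ratio turned from 3.78 to −0.29 at the limit of 5%. Ccl2 had 36 UMIs in 7 old cells and 16 UMIs in 2 young cells, with 15 of the 16 in 1 young cell, and its ratio of 2.08 was 0.455 after thinning. Cxcl14 and Cxcl12, which fibroblasts make constantly, had −0.47 and 0.43.

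**Figure D3:**
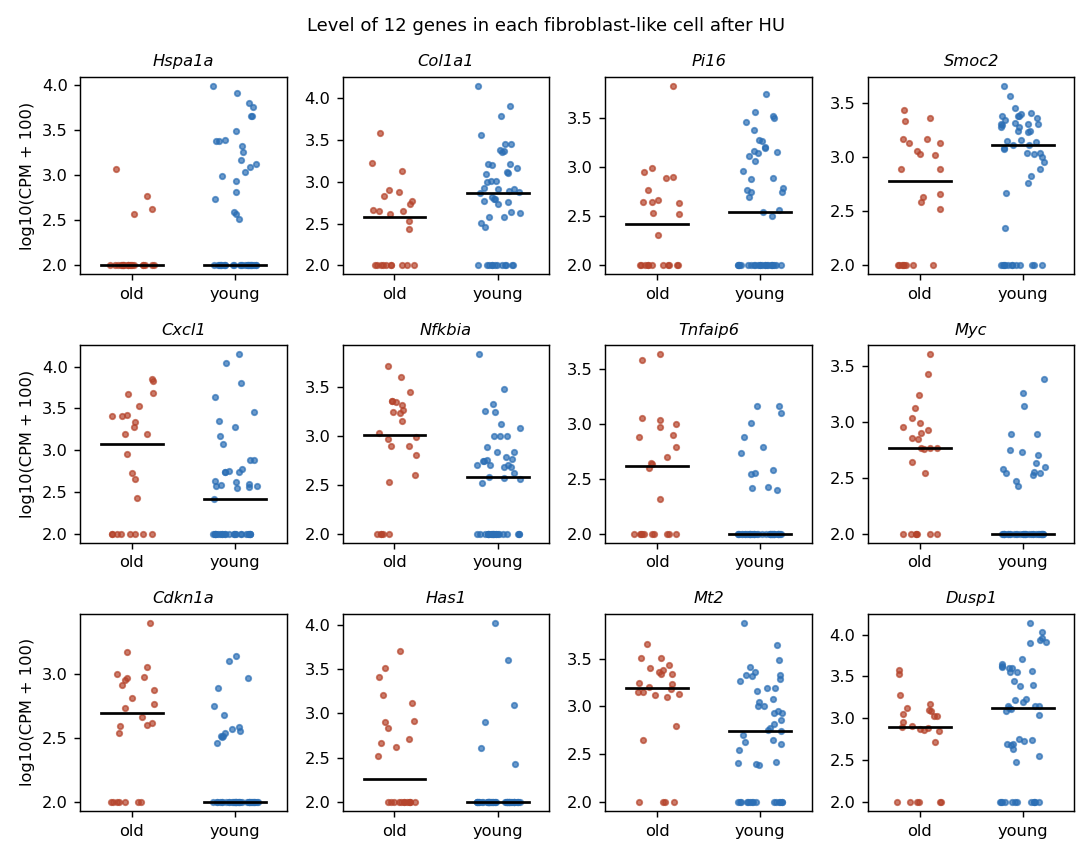
Level of 12 genes in every fibroblast-like cell after HU, as log10 of CPM plus 100 (y axis), with 24 old cells (red, left) and 49 young cells (blue, right) in each panel. Points are cells, black lines are medians, and points at 2 are cells with no UMI, so the median of Tnfaip6, Myc and Cdkn1a lies at 0 UMIs in young cells and above it in old cells.

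The promoters of these genes are shown because Cxcl1 and Nfkbia are well known NF-κB targets. The letters GGGA, any base, then TTTCC, a stretch that NF-κB can bind, were searched on both strands of the 250 bases before each start site in RefSeq (GRCm38.p6), and 0.356% of 32851 such windows held them. Of the 15 genes that led the higher side 13 had a window and 2 of these held the letters, and of the 15 that led the lower side 10 had a window and 0 held them. Letters for AP-1 (TGACTCA, in 4.46% of all windows) were in 1 and 0 of these windows, and letters for CREB (TGACGTCA, in 1.55%) in 2 and 1. Matches are a description of the letters and not of binding. The stretches run 5′ to 3′ on the strand of the gene, with the match in capitals. Cxcl1 is at chr5:90891124-90891233, plus strand, with the match starting 71 bases before the start site, and Nfkbia at chr12:55492648-55492726, minus strand, with the match (its reverse complement) starting 29 bases before.
Cxcl1: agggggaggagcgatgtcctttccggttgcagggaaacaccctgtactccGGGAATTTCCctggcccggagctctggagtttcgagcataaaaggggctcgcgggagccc
Nfkbia: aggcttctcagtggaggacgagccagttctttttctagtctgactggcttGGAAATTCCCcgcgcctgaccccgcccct

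Myc, Nop58, Cdkn1a and Sertad1 were also on the higher side. Myc, the growth-promoting transcription factor, had 0 to 26 UMIs per old cell with a median of 2 and 0 to 5 per young cell with a median of 0. It summed to 821 CPM in old and 184 CPM in young members, 2.16 [1.57, 2.78]. Nop58, a part of the machinery that modifies ribosomal RNA, had 43 UMIs in old and 15 in young members, 2.43 [1.55, 3.38]. Cdkn1a (chr17:29090976-29100727, plus strand), which encodes the cell cycle inhibitor p21, had 48 UMIs in 17 old cells and 23 UMIs in 14 young cells. That is 487 CPM in old and 124 CPM in young members, 1.97 [1.22, 2.75], and at most 8 UMIs came from 1 cell. Sertad1, a cell cycle and transcription cofactor, had 1.53 [0.89, 2.19]. Of 20 cell cycle inhibitors and p53 targets 3 were measured, of which Cdkn1a was called, while Gadd45g had 0.54 and Cdkn1c −0.24. The 14 cell cycle genes summed to 12 UMIs in old and 32 UMIs in young members, too few for any to be measured.

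Tubulin genes and other genes completed the higher side. Tubb2a had 46 UMIs in old and 19 in young members, 2.18 [1.38, 3.04], and Tuba1b had 1.54 [0.86, 2.24], although both belong to families of near-identical tubulin genes whose reads may be split between copies. Map4, which binds microtubules, had 1.22 [0.41, 2.04]. Its ratio was 0.29 after thinning, where no UMI minimum was set, and 0.33 without the 2 old cells of over 10000 UMIs. Lsp1, an actin-binding protein best known in leukocytes, had 31 UMIs in old and 27 in young members, 1.11 [0.32, 1.91], at 9 and 5 UMIs of the leukocyte list, and 0.29 after thinning. Ppp1r2, a phosphatase inhibitor, had 1.10 [0.41, 1.78].

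**Figure D4:**
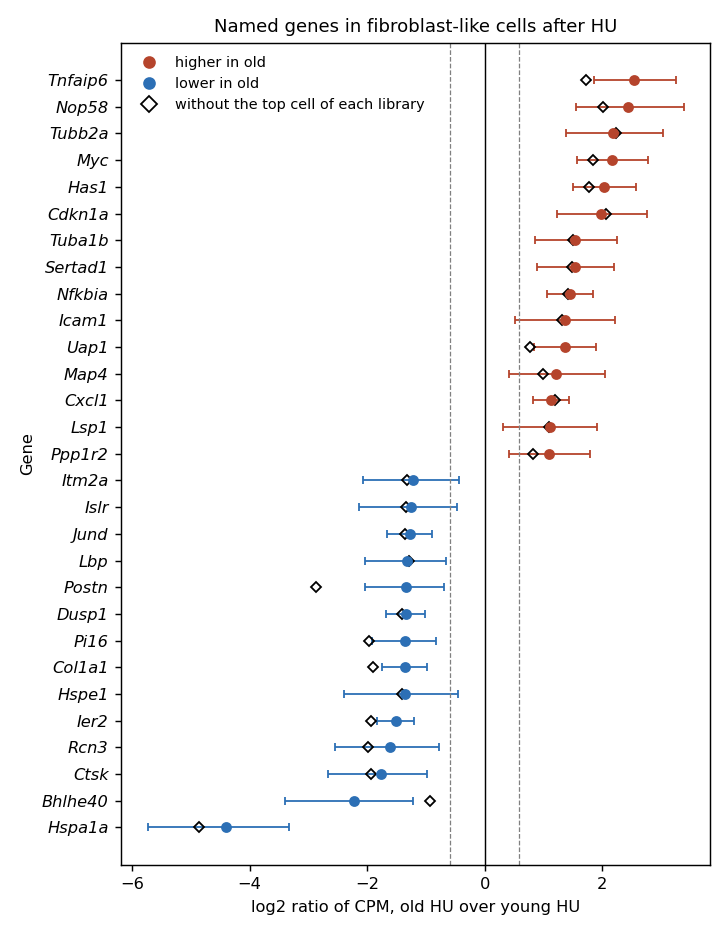
Log2 ratio of CPM, old HU over young HU (x axis), for the 15 genes that led the higher side and 14 of the 15 that led the lower side (y axis). Filled points with lines are the ratio and its exact 95% Poisson interval, open diamonds are the ratio without the top cell of each library, and dashed lines mark 1.5-fold, with Hspa1a at −4.40 the farthest from 0.

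Hspa1a had the lowest ratio of all. Hspa1a (chr17:34969190-34972156, minus strand) encodes the inducible heat shock protein HSP70. It had 0 to 3 UMIs per old cell and a UMI in 4 of 24 cells, against 0 to 58 UMIs per young cell and a UMI in 23 of 49 cells, and the median was 0 in both. It summed to 7 UMIs (71 CPM) in old and 277 UMIs (1496 CPM) in young members, a log2 ratio of −4.40 [−5.73, −3.34]. Hspa1b, a near-identical neighbour whose reads can be hard to tell from those of Hspa1a, had 3 UMIs in old and 35 in young members. Of 10 measured heat shock genes 3 were called lower and 1 higher, against 12.8% and 10.8% of all measured genes, with a median of −0.31. Hspe1, the mitochondrial co-chaperonin, was lower at −1.36 [−2.40, −0.45] and Hsp90aa1 at −0.61 (−0.23 with at least 5 genes of the rule). Hspb8 was higher at 0.75 (0.31 at a limit of 5% mitochondrial UMIs), and Hsp90ab1 (0.25) and Hspa5 (0.35) were not called.

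The lower ratio of Hspa1a was also seen in other cells of the same 2 libraries, which share the library, the sort and the digestion. It was −0.94 [−1.15, −0.73] in endothelial-like cells, −2.59 [−2.70, −2.49] in macrophage-like cells and −3.79 [−4.19, −3.41] in T cell-like cells. A UMI of Hspa1a was found in 16.6% of old and 60.5% of young T cell-like cells. T cells can make this gene, so their share is no blank, and age and library cannot be told apart. The T cell-like class was also mixed. Endothelial markers summed to 20 UMIs in its 187 old and 744 UMIs in its 43 young cells, and macrophage markers to 1880 and 70 UMIs. In endothelial-like cells, macrophage markers summed to 1342 UMIs in 175 old and 531 UMIs in 284 young cells. How far such mixing moved the ratios of these classes, here and below, was not tested.

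The heat shock element, the site of heat shock factors, is built of GAA units, and GAANNTTC was searched the same way. It was in 6.69% of the 32851 windows, in 1 of the 13 windows on the higher side and in 2 of the 10 on the lower side, which are those of Hspa1a and Hspe1. Hspa1a is at chr17:34972203-34972310, minus strand, with the match starting 104 bases before the start site, and Hspe1 at chr1:55088014-55088121, plus strand, with the match starting 84 bases before.
Hspa1a: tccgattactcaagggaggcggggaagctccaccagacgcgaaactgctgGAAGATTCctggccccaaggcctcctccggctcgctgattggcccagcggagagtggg
Hspe1: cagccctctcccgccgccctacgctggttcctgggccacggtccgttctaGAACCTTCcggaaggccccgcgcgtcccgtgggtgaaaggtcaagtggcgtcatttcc

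Immediate-early genes, which cells switch on within minutes of stimulation and of tissue digestion, were split. Of 23 measured, 5 were called higher and 7 lower, against 10.8% and 12.8% of all measured genes, with a median of 0.09. Ier2 had 0 to 30 UMIs per old cell with a median of 1.5 and 0 to 35 per young cell with a median of 10. It summed to 1004 CPM in old and 2862 CPM in young members, −1.51 [−1.84, −1.20]. Dusp1, a phosphatase that ends MAP kinase signals, had 943 CPM in old and 2387 CPM in young members, −1.34 [−1.68, −1.01], and Jund had −1.27 [−1.66, −0.90]. Besides Myc and Nfkbia, Klf2 (0.99), Ier5 (0.91) and Atf3 (0.59) were called higher, but Klf2 had 0.43 after thinning, Ier5 0.48 with at least 5 genes of the rule and Atf3 0.40 with 0 C1q UMIs. The genes with most UMIs, Junb (−0.03), Fos (−0.24), Jun (−0.53) and Egr1 (0.48), were within 1.5-fold.

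Glucocorticoid-responsive genes went both ways too. Of 9 measured, 4 were called higher and 3 lower, against 10.8% and 12.8% of all measured genes, with a median of −0.08. Tsc22d3, the glucocorticoid-induced leucine zipper, had 618 CPM in old and 1377 CPM in young members, −1.15 [−1.58, −0.75], and Sgk1 had −0.80 [−1.48, −0.16] (0.16 after thinning). The metallothioneins Mt1 and Mt2, which bind zinc and are induced by metals as well, were higher. Mt1 had 10383 CPM in old and 6917 CPM in young members, 0.59 [0.47, 0.71], at the edge of the 1.5-fold rule (0.34 at a limit of 5% mitochondrial UMIs), and Mt2 had 1470 CPM and 751 CPM, 0.97 [0.62, 1.32]. Bhlhe40, a stress-responsive repressor, was lower at −2.22, but 54 of its 79 young UMIs came from 1 cell, and the ratio was −0.93 without the top cell of each library.

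Many housekeeping and signalling lists did not differ by the 1.5-fold rule. Of 26 measured nuclear genes of oxidative phosphorylation 1 was called higher and 1 lower, with a median of −0.03, and of 7 measured glycolysis and hypoxia genes Adm was lower at −1.21 and the others were within the rule. No gene of the 4 measured growth factor receptors, Pdgfra (0.12 [−0.54, 0.76]) and Egfr (0.07) among them, was called. The 3 measured IGF-binding proteins had −0.01 (Igfbp4), −0.54 (Igfbp6) and 0.07 (Igfbp7). Igf1, the growth factor, had 31 UMIs in old and 48 in young members, 0.28 [−0.42, 0.96]. Of the interferon-stimulated genes 5 of 33 were measured, with Ifitm3 higher at 0.60 (0.45 after thinning) and Ifi27l2a lower at −0.998 (−0.27 with every cell weighted equally), and of MHC class I genes 3 of 16, with 0 called. Secreted WNT modulators summed to 13 UMIs in old and 68 UMIs in young members, with none of the 13 measured. For genes within the rule the intervals often reach past 1.5-fold, so a like level in both ages is not shown.

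**Figure D5:**
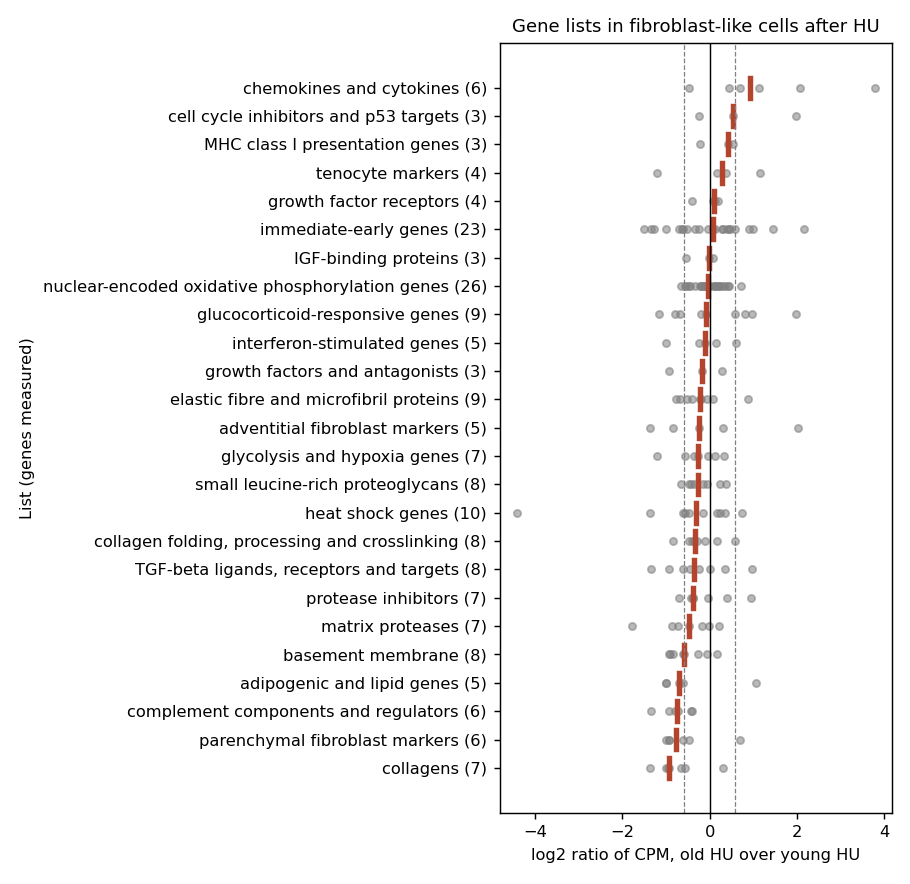
Log2 ratio of CPM, old HU over young HU (x axis), of the measured genes (grey points) of each gene list (y axis, with the number measured), and the median of each list (red bars). Dashed lines mark 1.5-fold, with collagens lowest at −0.92 and chemokines and cytokines highest at 0.92. The collagen list includes Col1a1, Col1a2 and Col3a1, which the rule reads, and without them its median was −0.61.

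The genes that led the higher side can be set beside the same genes in other cells, with caution. All come from the same 2 libraries, and the endothelial-like and T cell-like classes were mixed, as given above. Of these 15 genes 12 were measured in endothelial-like cells, with 9 called higher and 0 lower, against 9.06% and 11.6% of all genes there. In macrophage-like cells 13 were measured, with 7 called higher and 0 lower, against 12.9% and 17.9%. Of the 15 on the lower side, 2 of 6 measured were lower and 2 higher in endothelial-like cells. In macrophage-like cells 4 of 8 were lower and 1 higher. Cdkn1a had a log2 ratio of 1.97 in fibroblast-like, 0.69 in endothelial-like, 1.76 in macrophage-like and 0.92 in T cell-like cells. Icam1 had 1.36, 1.80, 2.17 and 0.51 in the same order, and Nfkbia 1.44, 0.39, 1.10 and 0.19. Cxcl1 had 1.13 in fibroblast-like, 0.96 in endothelial-like and 3.40 in macrophage-like cells. Tnfaip6 had 0.13 [−0.98, 1.21] in endothelial-like and −0.23 [−1.27, 0.83] in macrophage-like cells, and Has1 was nearly absent there, at 3 and 1 UMIs. Sparc, a matrix gene that endothelial-like cells also express, had −0.85 in fibroblast-like and −0.89 [−1.03, −0.74] in endothelial-like cells. Of 11 basement membrane genes measured in endothelial-like cells 4 were called lower and 0 higher, with a median of −0.54, so lower values on this list were not particular to the members. Ier2 and Dusp1 were higher in old endothelial-like cells, at 0.89 and 1.16.

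Across the 6 libraries, the fibroblast-like cells of HU can be placed beside the few of control and reload. In old cells Col1a1 was at 1023 CPM in control, 730 CPM in HU and 1504 CPM in reload, on 31, 72 and 26 UMIs. In young cells it was at 294, 1868 and 6276 CPM, on 6, 346 and 1341 UMIs. Cxcl1 was at 495, 2028 and 926 CPM in old cells and at 687, 929 and 1324 CPM in young cells of control, HU and reload. Hspa1a was at 99, 71 and 0 CPM in old cells and at 196, 1496 and 42 CPM in young cells, so its level was highest in young HU. From 3 to 12 cells stand behind each control and reload value, and no ratio between treatments was formed.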

How the data were processed

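The authors deposited UMI counts per gene and barcode for 6 libraries, made per the labels with 10x 3′ chemistry and, in their processing notes, Cell Ranger 3.1.0 on mm10. HU libraries held 7020839 (old) and 5782054 (young) UMIs, and all libraries 5782054 to 22749375. Barcodes with at least 200 genes and at most 10% mitochondrial UMIs were kept, and members were taken by the rule given above. Pairs of libraries shared 5 to 41 barcodes, and 1 old and 0 young HU members shared one. Doublets were not removed in the main values. UMIs were summed per library with a minimum of 50 UMIs over both libraries, and ratios carry 95% Poisson intervals. A count of 0 was set to 3 counts. Genes named are the 7 of the rule, the 15 highest and 15 lowest (UMI in at least 10 cells of the higher library, no mitochondrial, ribosomal, haemoglobin or unnamed genes), and members of each list with most UMIs or extreme ratios. Other genes named were chosen after their values were seen. Members, lists and motifs were chosen with earlier results of these data known. The scripts were tested on simulated data. Python 3.11.15, scipy 1.17.1, scanpy 1.11.5 (doublet scores) and edgeR 4.0.16 (TMM factors only) were used. With 1 library per group no test between groups was run. Alternatives were other cell limits, gene minimums, scalings, thinning, and sets of cells. Results for a few genes are not reported here.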

Additional observations from a re-analysis of the deposited data

Results flagged for a closer look

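The ratios of some genes ran the other way in other cells of the same 2 HU libraries, and these differences were not tested. Ier2 had a log2 ratio (old over young) of 0.89 in endothelial-like cells, against −1.51 in fibroblast-like cells, and Dusp1 had 1.16 against −1.34. Bhlhe40 had 0.97 in macrophage-like cells, against −2.22 in fibroblast-like cells, where 1 young cell held most of its UMIs.

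Between ages, several genes ran the other way in the 5 old and 3 young fibroblast-like cells of the control libraries, on few UMIs and with no test. Col1a2 had 1.25 there (53 old and 15 young UMIs) against −0.96 after HU, Col3a1 0.81 (47 and 18 UMIs) against −1.01, and Lum 2.37 (46 and 6 UMIs) against −0.65. Tnfaip6 had 0 old and 116 young UMIs in control, a ratio of −5.85 with 0 set to 3 counts, against 2.53 after HU, and Has1 had −0.71 (41 and 45 UMIs) against 2.03. Jund had 1.04 in control (46 and 15 UMIs) and 1.49 in reload (41 and 180 UMIs), against −1.27 after HU.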

How the results depend on the processing

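With a minimum of 1000 genes the member share was 1.95% of old and 4.76% of young HU cells, with at least 3 genes of the rule 2.01% and 4.48%, and with at least 5 it was 0.741% of old HU. Calls higher and lower in old were 28 and 35 after thinning, 249 and 364 at a minimum of 20 UMIs, 19 and 27 at 200 UMIs, and 2291 and 1809 at 1 UMI in each library. Higher calls were 125 on mean UMIs per cell with 70 lower, and 42 with 147 lower (22.2% of calls higher) without the top cell of each gene, a setting chosen after seeing the data. Higher calls were 45.9% of all calls, 31.9% with TMM, 64.1% on mean UMIs per cell and 55.9% on the total without mitochondrial, ribosomal, haemoglobin and rule genes. The parenchymal median turned to 0.012 after thinning, as did Ltbp4 (0.095), Hmcn2 (0.32), Sgk1 (0.16), Tagln (−1.03) and Comp (−0.35). Tagln had −0.12 with at least 3 genes of the rule and −1.78 without old members over 10000 UMIs, the latter with 0 old UMIs set to 3 counts. Comp had −2.69 with at least 5 genes of the rule, −3.12 without the 5 deepest members of each library, −0.55 with cells weighted equally, −2.41 without its top cells, −3.67 without members with at least 2 tenocyte markers and −3.31 without old members over 10000 UMIs. Apart from equal weighting, these values of Comp are bounds, since no old UMI was left and 0 was set to 3 counts. Thbs4 had 1.001 without those tenocyte-marker members, and Ccl7 −0.29 at the limit of 5% mitochondrial UMIs. Other than fewer cells or genes, the cause was not tested. The 15 named higher and 15 named lower genes kept their direction in all 18 settings, and 10 and 12 of them stayed past 1.5-fold. They were picked as the extreme ratios of these same data, so a kept direction is no independent check. Leaving out the highest doublet scores, or members with a Ptprc UMI, removed 0 members and changed no ratio. TMM factors, mean UMIs per cell and the reduced total shift every gene alike. Settings that leave out tenocyte-marker members, the member with a shared barcode or the deepest old members were also added after seeing the data. No paired analysis was possible because each group had 1 library.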
